A study of Homo sapiens with 11 samples.

Results

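Antigen presentation and interferon genes were examined in HK2 cells, an immortalised line of human kidney proximal tubule epithelium, as 44 genes chosen by name from the 58243 genes that the RNA-seq data hold on the 24 chromosomes 1 to 22, X and Y. Of the 44 genes, 15 serve MHC class I presentation, 11 serve class II presentation, and 18 belong to the interferon response. All 44 names were found. The cells formed a single group with no treatment contrast and no genetic difference named between samples: every library came from the same immortalised line. It was grown in serum-containing medium with a trace of DMSO. RNA was measured in 2 libraries, and H3K4me3, H3K27ac and H3K27me3 by ChIP-seq in 2 replicates each. Nothing in the labels says whether replicates came from separate cultures, so the spread between them may be technical. Comparisons here are between gene classes in the same cells, and no test was run over genes, which are not replicates.

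Class I molecules are carried by nearly all nucleated cells and show peptides from inside the cell to CD8 T cells. The peptides are cut by the proteasome, pumped into the endoplasmic reticulum by the TAP transporter, trimmed and loaded onto a heavy chain paired with β2-microglobulin. Class II molecules present peptides from outside the cell to CD4 T cells, and their genes are normally kept for professional antigen-presenting cells or switched on by interferon γ through the coactivator CIITA. Interferons bind surface receptors, activate JAK kinases and send transcription factors to short promoter elements of antiviral genes. The interferon-stimulated response element (ISRE) is bound by the complex of STAT and IRF9 proteins and by IRF factors, the GAS element by STAT dimers, and the CCAAT box by NF-Y, which also sits on class II promoters. Injured proximal tubule cells are known to display class II molecules. H3K4me3 marks promoters, H3K27ac marks active promoters and enhancers, and H3K27me3 is the Polycomb mark of silent genes.

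The upstream stretches below, each ending at the base before the RefSeq start and written along the strand of the gene, are shown because they carry the ISRE letters found in class I and interferon promoters and in no class II promoter of the table. In capitals is each ISRE core (GAAANNGAAA, or the same letters read on the opposite strand), and overlapping matches run together. B2M and TAP1 are class I genes and the other 6 are interferon effectors. In GRCh38.p14 they lie at chr15:44711347-44711516 on the plus strand for B2M, chr6:32853705-32853874 on the minus strand for TAP1, chr19:17405631-17405800 on the minus strand for BST2, chr1:1013327-1013496 on the plus strand for ISG15, chr12:112938304-112938473 on the plus strand for OAS3, chr10:89392453-89392622 on the plus strand for IFIT1, chr10:89327827-89327996 on the plus strand for IFIT3 and chr1:27672193-27672362 on the minus strand for IFI6.
B2M: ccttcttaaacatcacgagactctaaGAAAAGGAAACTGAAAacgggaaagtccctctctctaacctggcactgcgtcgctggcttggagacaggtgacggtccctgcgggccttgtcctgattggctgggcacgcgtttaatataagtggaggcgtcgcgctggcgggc
TAP1: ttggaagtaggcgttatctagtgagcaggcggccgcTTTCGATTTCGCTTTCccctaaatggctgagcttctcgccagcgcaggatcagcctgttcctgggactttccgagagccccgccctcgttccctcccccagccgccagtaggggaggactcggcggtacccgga
BST2: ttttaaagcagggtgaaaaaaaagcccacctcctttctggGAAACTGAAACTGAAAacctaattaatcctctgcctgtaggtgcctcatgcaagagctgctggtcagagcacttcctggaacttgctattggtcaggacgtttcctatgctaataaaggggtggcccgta
ISG15: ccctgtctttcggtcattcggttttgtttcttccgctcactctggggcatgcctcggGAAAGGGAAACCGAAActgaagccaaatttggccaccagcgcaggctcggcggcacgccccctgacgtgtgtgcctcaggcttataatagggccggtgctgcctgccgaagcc
OAS3: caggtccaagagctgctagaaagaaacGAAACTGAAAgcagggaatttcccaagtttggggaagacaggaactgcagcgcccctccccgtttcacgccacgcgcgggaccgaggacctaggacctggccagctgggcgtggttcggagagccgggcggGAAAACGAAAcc
IFIT1: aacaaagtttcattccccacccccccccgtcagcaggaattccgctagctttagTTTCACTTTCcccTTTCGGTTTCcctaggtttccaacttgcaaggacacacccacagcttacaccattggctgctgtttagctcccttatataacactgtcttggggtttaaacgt
IFIT3: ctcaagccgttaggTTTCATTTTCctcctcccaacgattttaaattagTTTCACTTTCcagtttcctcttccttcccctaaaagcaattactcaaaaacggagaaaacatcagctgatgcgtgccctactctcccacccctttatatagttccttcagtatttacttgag
IFI6: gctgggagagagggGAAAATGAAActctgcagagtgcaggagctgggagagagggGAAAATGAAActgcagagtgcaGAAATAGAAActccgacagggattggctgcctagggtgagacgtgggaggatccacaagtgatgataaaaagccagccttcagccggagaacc

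A second set shows the CCAAT box (CCAAT, or ATTGG for the opposite strand) in class II genes, with the transcribed CD74 and HLA-DMA beside the nearly silent HLA-DPB1 and HLA-DQB1. In GRCh38.p14 these stretches lie at chr5:150412911-150413010 on the minus strand for CD74, chr6:32953098-32953197 on the minus strand for HLA-DMA, chr6:33075890-33075989 on the plus strand for HLA-DPB1 and chr6:32666658-32666757 on the minus strand for HLA-DQB1.
CD74: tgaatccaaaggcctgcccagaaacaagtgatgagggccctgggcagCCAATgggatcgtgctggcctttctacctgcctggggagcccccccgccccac
HLA-DMA: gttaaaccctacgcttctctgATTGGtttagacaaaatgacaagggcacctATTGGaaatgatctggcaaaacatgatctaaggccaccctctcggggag
HLA-DPB1: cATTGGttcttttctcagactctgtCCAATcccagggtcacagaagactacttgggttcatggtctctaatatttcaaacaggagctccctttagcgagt
HLA-DQB1: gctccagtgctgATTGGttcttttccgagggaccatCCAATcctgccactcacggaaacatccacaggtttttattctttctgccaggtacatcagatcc

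As to the series as a whole, the 2 RNA-seq libraries were close in depth, with an FPKM of 1 standing for a mean coverage of 5.67 in library 1 and 5.52 in library 2. FPKM scales fragments by transcript length and library size, so levels can be compared between genes. The ChIP-seq replicates were less alike: peak lists of replicate 1 covered 3.47% of the 24 chromosomes for H3K27ac and 2.85% for H3K27me3, against 1.26% and 0.862% in replicate 2. For H3K4me3, replicate 1 had 28615 peaks with a mean width of 1470 bp, covering 1.36%. Replicate 2 had 73505 peaks with a mean width of 656 bp, covering 1.56%. Of 5 epithelial markers, 4 reached an FPKM of 1 in both libraries, and the lowest of the 5 averaged 0.247. Among them the keratins KRT8 (179 and 184 FPKM) and KRT19 (123 and 123 FPKM) were abundant. Only 2 of 8 proximal tubule markers reached an FPKM of 1 in both libraries, GGT1 (64.1 and 58.1) and SLC5A2 (1.56 and 2.36). LRP2 and SLC22A6, named after their values were seen, were listed at 0, so the labelled cell type had few of its defining transcripts. Of 10 leukocyte markers, 2 reached an FPKM of 1 in both libraries, CD68 (42.5 and 36.8) and CSF1R (4.66 and 4.30), and the defining markers PTPRC, MS4A1 and CD3E, again named after their values were seen, were listed at 0.

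The class I pathway was transcribed almost whole, the class II chains were nearly silent, and the interferon genes lay between. A gene is called expressed below where both libraries gave it 1 FPKM or more, and this held for 14 of 15 class I genes, 4 of 11 class II genes and 14 of 18 interferon genes. Among 19645 protein-coding genes, 58.8% were expressed. Median FPKM was 17.0 for class I, 0.221 for class II and 6.43 for interferon genes, beside 3.32 for all protein-coding genes. On the scale of log10(FPKM + 1), the class I median exceeded the class II median by 1.17 and the interferon median by 0.386, and the interferon median exceeded that of class II by 0.782. These are values per bulk sample, in which fewer cells expressing a gene and less RNA per cell cannot be told apart.

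**Figure D1:**
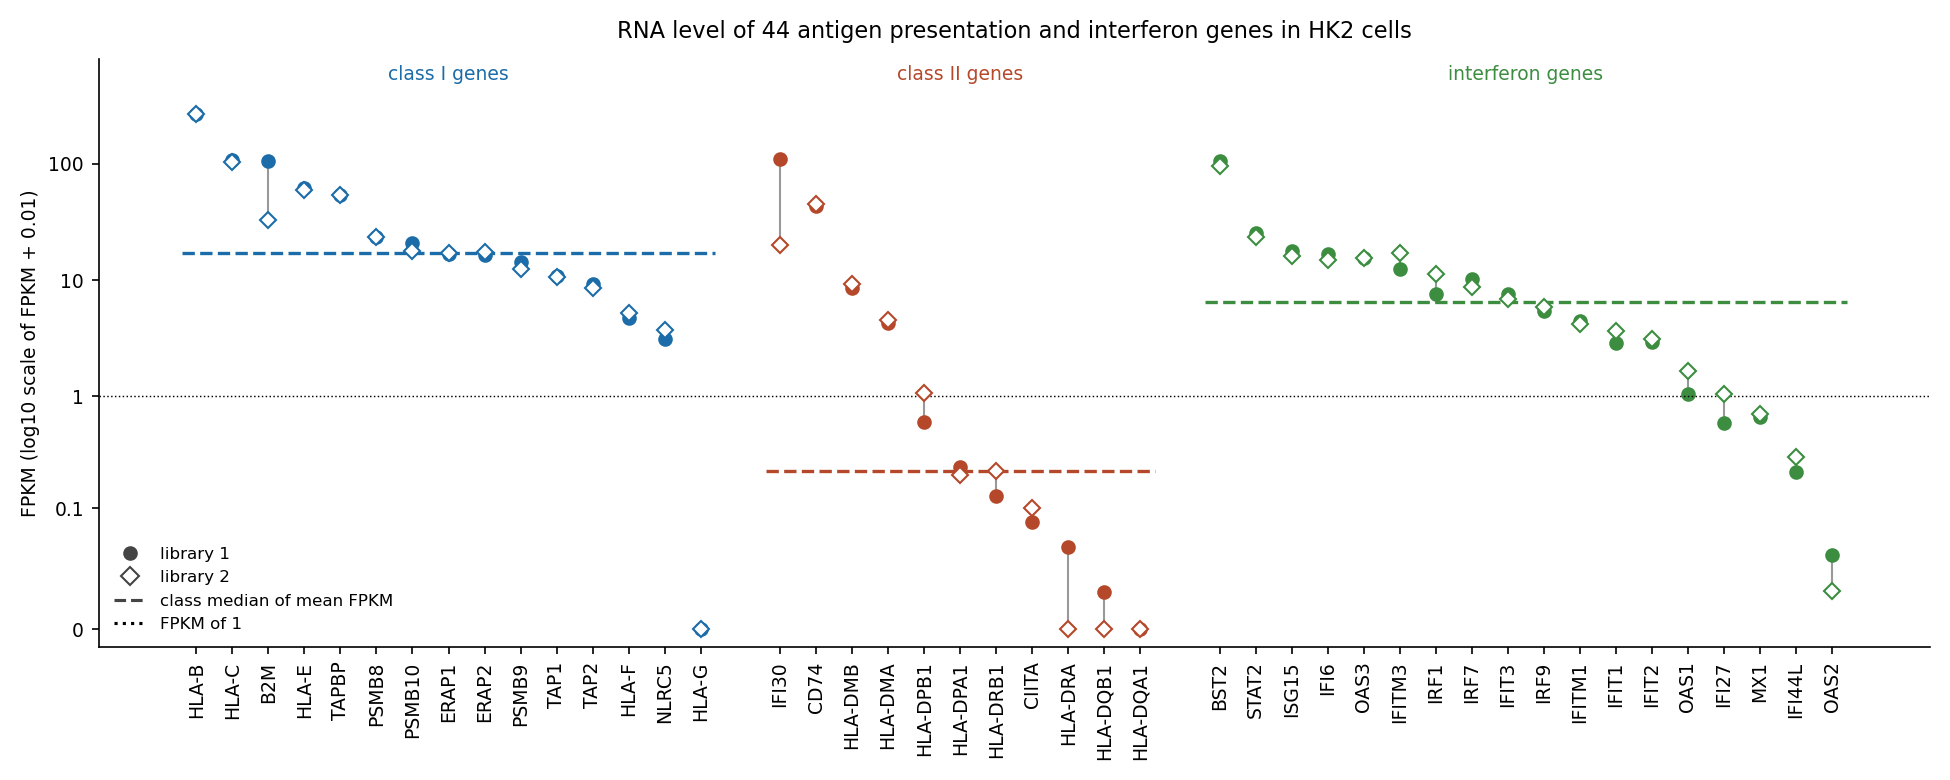
RNA level (FPKM on a log10 scale, 0.01 added) of each of the 44 genes in library 1 (filled circles) and library 2 (open diamonds), with the genes of each class ordered by mean and the class median dashed. Class I genes except HLA-G lie above an FPKM of 1, class II genes split into 4 high genes and 7 low ones, and B2M and IFI30 are the members with a mean FPKM of at least 1 whose libraries stand over 2-fold apart.

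Of the class I heavy chains, HLA-B was the highest, at 268 FPKM in library 1 and 266 in library 2 (267 ± 1.43, SD, n = 2), a level above that of 99.2% of protein-coding genes. HLA-C, the other classical chain among the members, stood at 108 and 104 FPKM. HLA-E, a nonclassical chain that displays signal peptides to NK cell receptors, followed at 61.4 and 59.8 FPKM. HLA-F, another nonclassical chain, was far lower at 4.72 and 5.24 FPKM, and HLA-G, a chain best known from the placenta, was listed at 0 in both libraries. The order HLA-B, HLA-C, HLA-E, HLA-F held in each library, with gaps wider than the difference between libraries. The chains share long stretches of near-identical sequence and differ between people, so the split of reads among them is uncertain. B2M, the light chain common to all of them, measured 107 FPKM in library 1 and 33.0 in library 2, a spread of 69.9 ± 52.2 (SD, n = 2).

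All 8 genes of peptide supply and loading were expressed, between 8.89 and 54.3 FPKM on average. TAPBP, the tapasin that bridges TAP to the heavy chain, led with 54.1 and 54.4 FPKM. The transporter subunits TAP1 (10.9 and 10.7) and TAP2 (9.20 and 8.58) form a heterodimer and were close to each other. The immunoproteasome subunits, which replace the constitutive catalytic subunits after interferon, measured 23.6 and 23.5 FPKM for PSMB8, 14.5 and 12.4 for PSMB9, and 20.9 and 17.7 for PSMB10. Each stood below its constitutive counterpart: PSMB5 had 56.8 and 73.0, PSMB6 69.1 and 69.7, and PSMB7 176 and 177. The aminopeptidases that trim peptides in the endoplasmic reticulum were nearly equal, ERAP1 at 16.8 and 17.1 FPKM and ERAP2 at 16.6 and 17.4. NLRC5, the transactivator of class I genes, had 3.11 and 3.72 FPKM, and the general loading chaperones CALR (818 and 776), PDIA3 (183 and 181), CANX (111 and 113) and TAPBPL (5.10 and 4.71) were all expressed. The gene ENSG00000250264 starts within 1 kb of TAP2, and strandedness of the library was not given in the sources used here, so reads of overlapping genes cannot be told apart.

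None of the 6 class II chains was expressed. HLA-DRA, the invariant α chain of the main class II molecule, was at 0.0413 FPKM in library 1 and at 0 in library 2. HLA-DRB1 stood at 0.129 and 0.221, HLA-DPA1 at 0.241 and 0.201, and HLA-DQB1 at 0.0109 and 0, while HLA-DQA1 was listed at 0 in both. HLA-DPB1 was the highest chain, with 0.598 FPKM in library 1 and 1.07 in library 2, from 3369 and 5022 aligned bases, and it crossed 1 in library 2 alone. HLA-DRA and HLA-DQB1 rest on 300 and 286 aligned bases in library 1 and on 0 in library 2, so both lie at the limit of this depth. CIITA, the coactivator without which class II promoters are idle, had 0.0730 and 0.09996 FPKM.

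The other 4 class II genes, which act in peptide loading, were all expressed. CD74, the invariant chain that occupies the groove of class II and also acts as a receptor of the cytokine MIF, had 43.5 and 45.1 FPKM, above 93.2% of protein-coding genes. HLA-DMB (8.65 and 9.28 FPKM) and HLA-DMA (4.30 and 4.53 FPKM) encode the chaperone that swaps the invariant chain fragment for peptide. The gene ENSG00000248993 overlaps HLA-DMB and starts within 1 kb of HLA-DMA, and its reads cannot be told apart from theirs. IFI30, a lysosomal thiol reductase that unfolds antigens, had 109 FPKM in library 1 and 20.1 in library 2, a mean of 64.8 ± 63.2 (SD, n = 2). All 7 genes of the promoter complex on which CIITA docks were expressed. They ran from RFXAP at 2.65 and 2.94 FPKM to NFYA, a subunit of the CCAAT-binding NF-Y, at 24.4 and 23.6, and RFX5, which binds the neighbouring X box, had 12.0 and 21.2. Of 7 further class II genes, the lysosomal proteases LGMN (108 and 100.3) and CTSS (2.47 and 2.35) were the 2 expressed.

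The transcription factors of the interferon response were expressed as RNA in all 4 cases. STAT2 had 25.3 and 23.7 FPKM, and IRF9, its DNA-binding partner, had 5.44 and 5.87. IRF7, which amplifies type I interferon production, stood at 10.3 and 8.72, and IRF1, a factor induced by interferon γ, at 7.65 and 11.4. The 9 receptor and kinase genes upstream of them were all expressed. JAK1, the kinase common to every interferon receptor, was the highest at 97.2 and 102 FPKM, and JAK2, which serves the interferon γ receptor, the lowest at 1.47 and 1.46. The receptor chains for type I interferon, IFNAR1 and IFNAR2, and for interferon γ, IFNGR1 and IFNGR2, all lay between 10.9 and 18.2 FPKM in each library. IFNLR1, the chain specific to interferon λ, was lower at 2.85 and 2.75. By contrast, none of 10 interferon genes was expressed, the highest being IFNL3 with 0.0718 and 0.148 FPKM, and 8 of the 10 were listed at 0 in both libraries.

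Effector genes of the interferon response ranged from 0.0224 to 100.4 FPKM on average, and 10 of 14 were expressed. BST2, the tetherin that holds budding virions at the cell surface, stood apart at 105 and 95.9 FPKM. The next group comprised ISG15, the ubiquitin-like modifier (17.9 and 16.0), IFI6, a small mitochondrial and reticulum protein (16.7 and 14.9), OAS3, a sensor of double-stranded RNA (15.6 and 15.6), and IFITM3, which blocks viral entry in endosomes (12.5 and 17.2). The ranges of these 4 neighbours overlapped, except that both ISG15 values lay above those of OAS3. IFIT3 (7.55 and 6.86), IFIT1 (2.87 and 3.63) and IFIT2 (2.95 and 3.14), which recognise or cooperate on foreign RNA, were lower, as was the surface protein IFITM1 (4.41 and 4.18). OAS1 was barely over the threshold at 1.05 and 1.64 FPKM.

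The same response had members that were nearly silent. IFI27 measured 0.581 and 1.04 FPKM, MX1, a GTPase against influenza viruses, 0.657 and 0.693, IFI44L 0.215 and 0.296, and OAS2 0.0333 and 0.0115. Within the OAS family the levels thus ran from 15.6 for OAS3 to 0.0224 for OAS2 on average, with OAS1 in between at 1.35 ± 0.418 (SD, n = 2). Family members of the IFITM and OAS genes resemble each other in sequence, so their split of reads is less certain than that of single-copy genes. Of 20 other interferon-induced genes, 13 were expressed, led by HERC5 (11.0 and 10.9), EIF2AK2 (10.0 and 10.8) and IFI35 (10.4 and 9.47). In a list of 8 sensors of foreign nucleic acid and the adaptors, kinase and factor that act after them, 7 were expressed, among them the adaptor MAVS at 20.3 and 20.6 and the DNA sensor CGAS at 16.2 and 17.0 FPKM. In a list of 6 genes drawn up as negative regulators, 5 were expressed, with the feedback inhibitor SOCS3 highest at 17.8 and 17.0. The gene of that list that was not expressed, ISG20 (0.321 and 0.334 FPKM), is an interferon-induced exonuclease and no such regulator, and is named after its values were seen.

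Among members with a mean FPKM of at least 1, B2M and IFI30 differed most between the RNA-seq libraries, by 3.23-fold and 5.43-fold, both higher in library 1. They were the 2 of these 32 members that lay over 2-fold apart (6.25%), beside 1.64% of 11748 protein-coding genes. For B2M the gap sat in particular transcripts: ENST00000349264 had 43.2 FPKM in library 1 and 0.763 in library 2, and ENST00000558401 had 50.1 and 19.7, whereas ENST00000561139 had 8.12 and 7.45. For IFI30 the canonical transcript ENST00000407280 itself stood at 94.1 and 17.6 FPKM. IRF1, whose sum was 1.48-fold higher in library 2, had another leading transcript in each library, with ENST00000245414 at 5.89 and 1.26 FPKM and ENST00000405885 at 0 and 8.20. What sets the libraries apart for these genes was not tested, and their levels are best read as ranges. Median FPKM of the classes did not turn on them, as the separate libraries gave the same order of classes.

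Active marks were most frequent at class I genes and H3K27me3 at class II genes. A peak within 1 kb of any annotated transcription start site (TSS) in both replicates was found for H3K4me3 at 13 of 15 class I, 4 of 11 class II and 10 of 18 interferon genes, beside 70.3% of protein-coding genes. H3K27ac was found at 11, 2 and 9 of them, respectively, beside 55.0%, and H3K27me3 at 1, 6 and 0, beside 11.4%. With the start of the canonical transcript alone, the counts were 13, 2 and 10 for H3K4me3 (67.1% of protein-coding genes), 10, 1 and 7 for H3K27ac (51.0%), and 0, 2 and 0 for H3K27me3 (9.46%). The deposited peaks carry no score, so presence and width are all that could be compared.

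**Figure D2:**
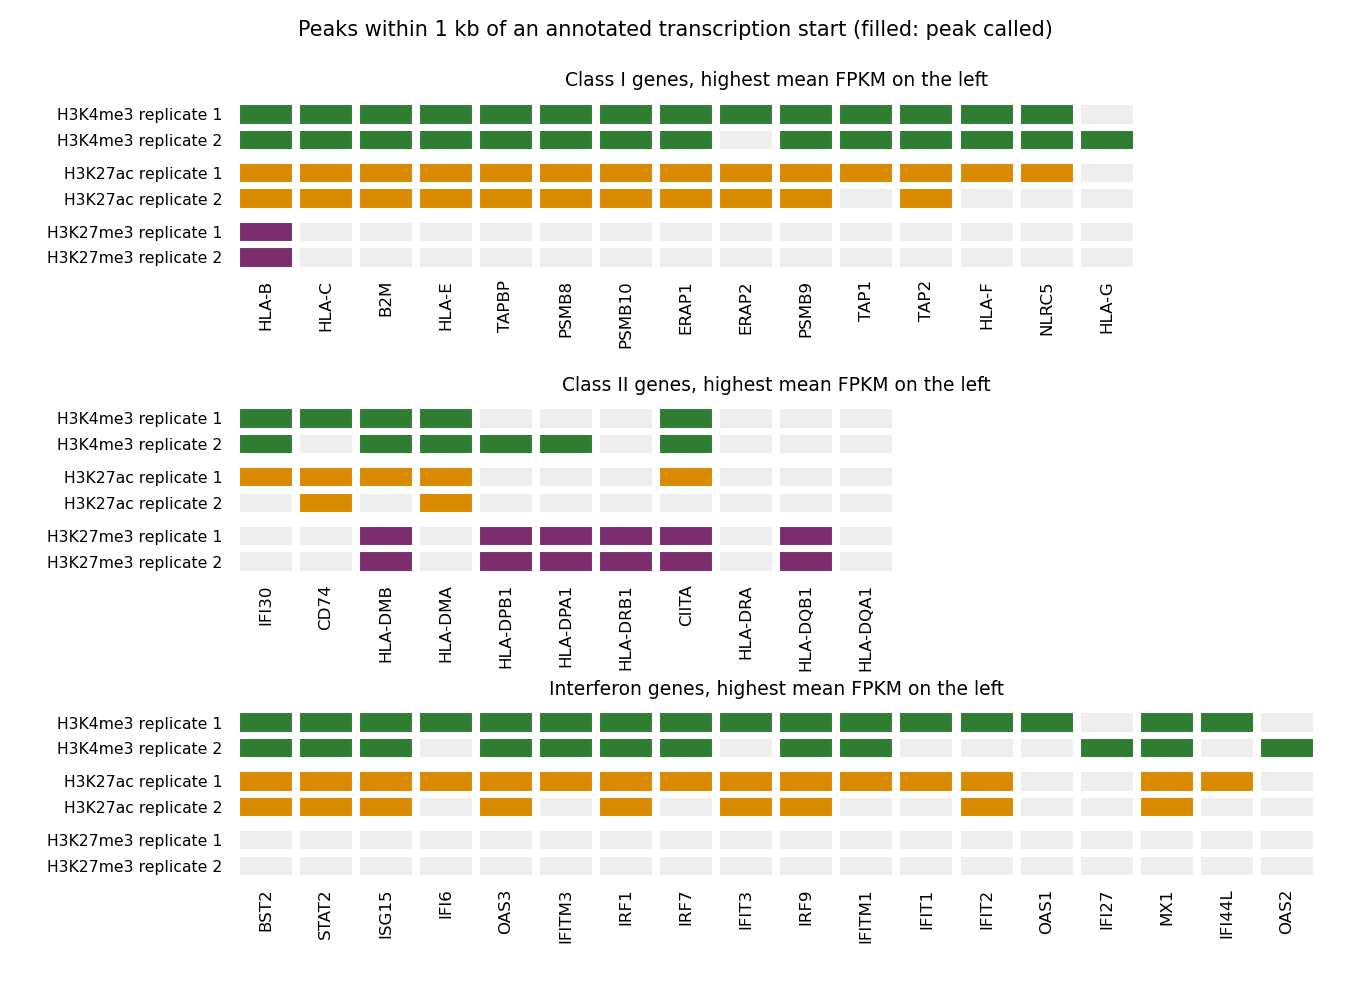
Presence (filled) or absence (grey) of a peak of H3K4me3, H3K27ac and H3K27me3 within 1 kb of any annotated start, in each replicate, for the 44 genes ordered by mean FPKM within their class. H3K27me3 is filled in both replicates at 6 class II genes, at HLA-B, and at 0 interferon genes, and 6 interferon genes have H3K4me3 in replicate 1 but not in replicate 2.

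Within 1 kb of the canonical start, 13 of the 15 class I genes had H3K4me3 and 10 had H3K27ac in both replicates. TAPBP had H3K4me3 peaks of 3052 and 2182 bp in replicates 1 and 2 and H3K27ac peaks of 3059 and 1845 bp. B2M had H3K4me3 of 2916 and 2131 bp, a window that also holds the start of PATL2. TAP1 and PSMB9 are transcribed away from each other and shared a single H3K4me3 peak of 2770 bp in replicate 1 and 2431 bp in replicate 2. HLA-G, listed at 0, lacked H3K4me3 in replicate 1 and had 885 bp in replicate 2. HLA-B was the class I gene called for H3K27me3, but the peaks (1368 and 626 bp) lay 668 and 896 bp from an upstream alternative start, at chr6:31332598-31333965 and chr6:31333112-31333737 in hg19, while its canonical start carried H3K4me3 of 1812 and 1439 bp and no H3K27me3. Since the ChIP-seq peaks were called from uniquely mapped reads, regions where the HLA genes are alike can lose signal.

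Of the class II chains, HLA-DRB1, HLA-DPA1, HLA-DPB1 and HLA-DQB1 had H3K27me3 within 1 kb of a start in both replicates and neither active mark in both. HLA-DRA and HLA-DQA1 had none of the 3 marks within 1 kb of a start in either replicate. HLA-DQB1 held the widest peak, with 5070 bp in replicate 1 (chr6:32630768-32635837, hg19) and 2113 bp in replicate 2, over its canonical start. HLA-DPA1 and HLA-DPB1 lie on opposite strands, overlap each other and shared the peak of 2344 bp in replicate 1 (chr6:33046539-33048882) and 626 bp in replicate 2, which covers or flanks the canonical start of HLA-DPA1 and only an alternative start of HLA-DPB1. HLA-DRB1 had 826 bp near the canonical start in replicate 1 and 484 bp at another start in replicate 2, so the replicates marked different places.

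CIITA carried both H3K4me3 and H3K27me3 in both replicates, the pattern called bivalent. The H3K4me3 peaks spanned chr16:10972433-10973247 in replicate 1 and chr16:10972314-10973376 in replicate 2 (hg19), 815 and 1063 bp wide, and lay inside H3K27me3 of 3317 bp (chr16:10971086-10974402) in replicate 1 and within a like interval of 1154 bp (chr16:10972278-10973431) in replicate 2. They cover an alternative start downstream of the canonical start at position 10971059, which had H3K27me3 in replicate 1 alone. H3K27ac was not called there in either replicate. The second H3K4me3 peak counted for CIITA, of 2476 bp in replicate 1 (chr16:11034380-11036855) and 1956 bp in replicate 2, lies at a far downstream start. Other genes starting there were not looked up.

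The expressed loading genes differed from the chains. CD74 had H3K27ac in both replicates (1806 bp in replicate 1 and 856 bp for the widest in replicate 2) and H3K4me3 of 1210 bp in replicate 1 alone. IFI30 had H3K4me3 of 1380 and 1694 bp and H3K27ac of 2514 bp in replicate 1 alone. HLA-DMB had H3K4me3 at its start (868 and 295 bp), and the H3K27me3 counted for it (2139 and 1275 bp) lay inside the gene over an internal start. For HLA-DMA, H3K27ac in both replicates (6717 and 3978 bp) came from a distant start, which also had H3K4me3 of 4836 and 3550 bp. At its canonical start H3K4me3 (165 bp) and H3K27ac (300 bp) were found in replicate 1 alone. Whether another gene starts at the distant peaks was not looked up, so they cannot be credited to HLA-DMA alone.

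Interferon genes had no H3K27me3 within 1 kb of an annotated start in either replicate, silent members included. Farther out, within 5 kb of the canonical start, OAS2 had a peak of 478 bp in replicate 1 and OAS3 a peak of 680 bp in replicate 2. The interferon genes divided by H3K4me3 within 1 kb of a start. IFIT1, IFIT2, IFIT3, IFI6, IFI44L and OAS1 had H3K4me3 in replicate 1 alone, with widths at the canonical start of 1841, 1855, 1753, 1423, 1121 and 1041 bp. That is 6 of 18 interferon genes, to which ERAP2 and CD74 add 2 members of the other classes, beside 1.62% of protein-coding genes and 1.10% of the expressed ones. IFIT2 and IFIT3 had H3K27ac in both replicates at the same place, whereas IFIT1, IFI6 and IFI44L had it in replicate 1 alone and OAS1 in neither. H3K27ac in replicate 1 alone was found at 12 of 44 members, beside 12.5% of protein-coding genes. For H3K4me3 in replicate 2 alone there were 5 members, HLA-G, HLA-DPA1, HLA-DPB1, IFI27 and OAS2, beside 7.72% of protein-coding genes. In the list of 20 other interferon-induced genes, H3K4me3 was in replicate 1 alone at 3 and in replicate 2 alone at 3. Between the RNA-seq libraries, RNA of these 6 genes differed most for OAS1 (1.56-fold) and IFI44L (1.37-fold), both higher in library 2. For H3K4me3, the paper lists fewer aligned read pairs and a lower fraction of reads in peaks for replicate 2 than for replicate 1. Whether RNA-seq and ChIP-seq replicates of the same number came from the same cells was not given in the sources used here. What separates the ChIP-seq replicates at these 6 genes was not tested.

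**Figure D3:**
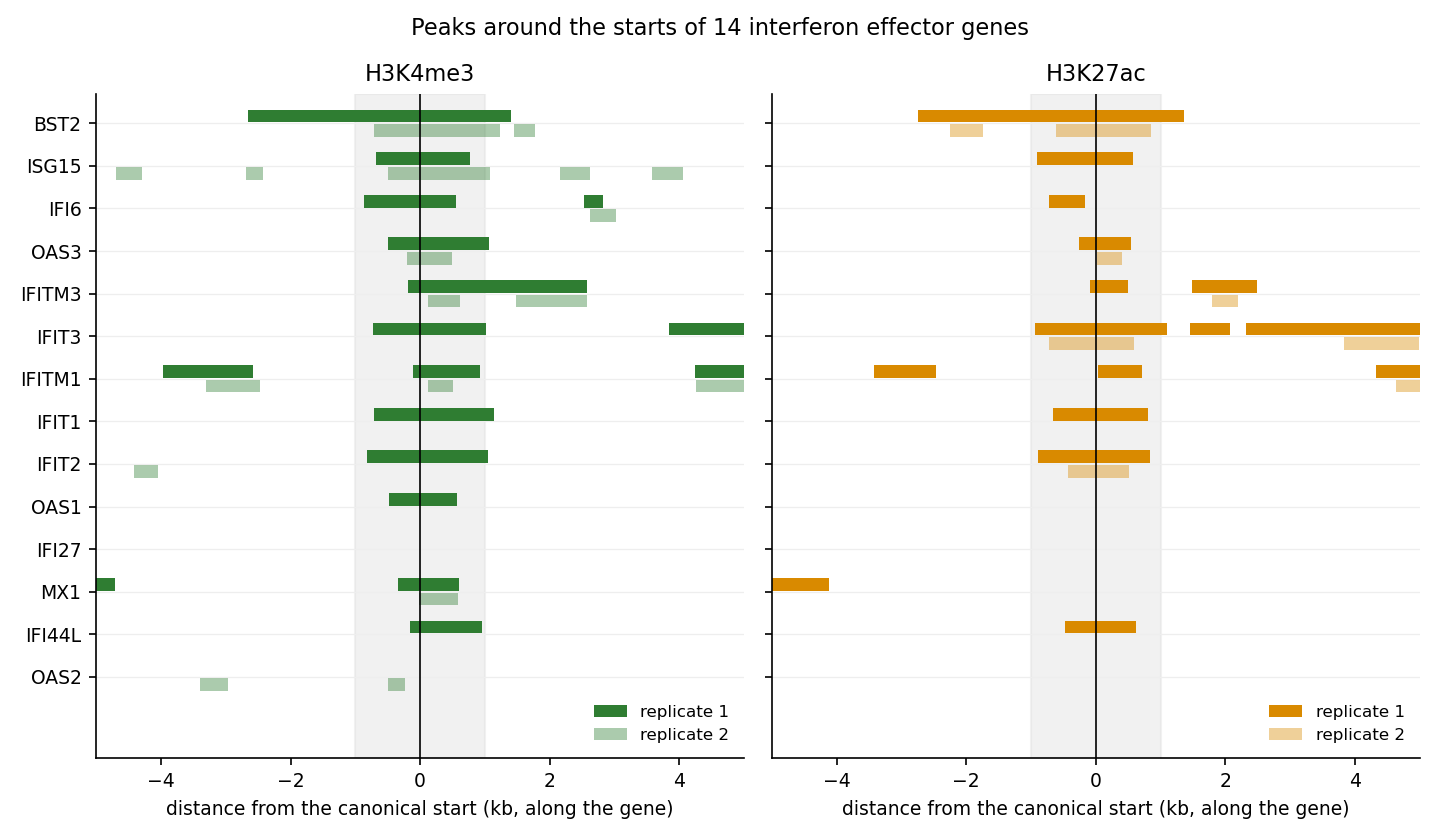
Peaks of H3K4me3 and H3K27ac from 5 kb before to 5 kb after the canonical start of the 14 interferon effectors, ordered by mean FPKM, replicate 1 in full colour and replicate 2 in pale colour, with the window of 1 kb shaded. At IFI6, IFIT1, IFIT2, IFIT3, OAS1 and IFI44L the shaded window holds H3K4me3 of replicate 1 only, and the H3K4me3 peak of BST2 in replicate 1 is 4063 bp wide.

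BST2, the highest effector, also had the widest active peaks of the 14 effectors at a canonical start in replicate 1, with H3K4me3 of 4063 and 1940 bp and H3K27ac of 4099 and 1469 bp. ISG15 had H3K4me3 of 1459 and 1576 bp at its canonical start, but H3K27ac there (1489 bp) in replicate 1 alone. Its H3K27ac call in both replicates came from a peak at an alternative start upstream, with 3661 and 2812 bp. Starts of other genes at that peak were not looked up, so it cannot be credited to ISG15 alone. IFI6, at 15.8 FPKM on average, was the highest member with no mark in both replicates. Beside protein-coding genes of a like level, the counts were as follows. With a mean FPKM from 5 to 20, H3K4me3 was in both replicates at 12 of 15 members and 98.6% of protein-coding genes, and from 1 to 5 at 4 of 7 members and 91.6%. The difference was not tested.

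Grouped by marks in both replicates, 17 members with H3K4me3 and H3K27ac and no H3K27me3 had a median FPKM of 17.0, and 16 of the 17 were expressed, MX1 being the exception. For PSMB9, HLA-DMA, ISG15 and MX1, the H3K27ac call in both replicates depended on alternative starts and did not hold at the canonical start. Protein-coding genes with that combination numbered 10248 (52.2%), with a median of 11.7. The 7 members with H3K4me3 alone, among them TAP1, NLRC5 and IRF7, had a median of 9.50, and the 4 with H3K27ac alone, ERAP2, CD74, IFIT2 and IFIT3, had a median of 12.1. The 4 chains with H3K27me3 alone had a median of 0.198 and none was expressed. The 9 members without any mark in both replicates had a median of 0.256, spread from HLA-G and HLA-DQA1 at 0 to IFI6 at 15.8. Taken whatever their other marks, the members with H3K27me3 in both replicates numbered 7 and had a median of 0.221. Among them HLA-B (267 FPKM on average) and HLA-DMB (8.96) were expressed. Protein-coding genes with H3K27me3, likewise whatever their other marks, numbered 2239 (11.4%) and had a median of 0.0314. Protein-coding genes with no mark had a median of 0.

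Within the MHC the balance of marks differed between its class I and class II regions. Each region was taken whole, with all genes and the stretches between them, so its shares are not those of a gene class. The class II region also holds the class I members TAP1, TAP2, PSMB8 and PSMB9. The class I region, chr6:29690552-31334844 from HLA-F to HLA-B, had 11.8% of its bases in H3K27ac peaks in replicate 1 and 6.24% in replicate 2. In the class II region, chr6:32407655-33057473 from HLA-DRA to HLA-DPB1, these shares were 3.54% and 1.43%. H3K27me3 covered 20.6% of the class II region in replicate 1, which was 133584 bp in 64 peaks, and 4.59% in replicate 2, which was 29814 bp in 57 peaks. The mean length of these peaks was 2090 bp and 523 bp, beside 1930 bp and 817 bp on all chromosomes. Relative to all 24 chromosomes, H3K27me3 coverage was 7.21 times as dense in replicate 1 and 5.33 times in replicate 2 in the class II region, and 4.04 and 5.13 times in the class I region. For H3K27me3 the class II region was thus clearly ahead in replicate 1 (20.6% against 11.5%) and close to equal in replicate 2 (4.59% against 4.42%). Over bases in peaks of both replicates the order was the other way, with 3.26% in the class II region and 3.43% in the class I region. For H3K4me3 and H3K27ac the class I region was denser in both replicates.

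**Figure D4:**
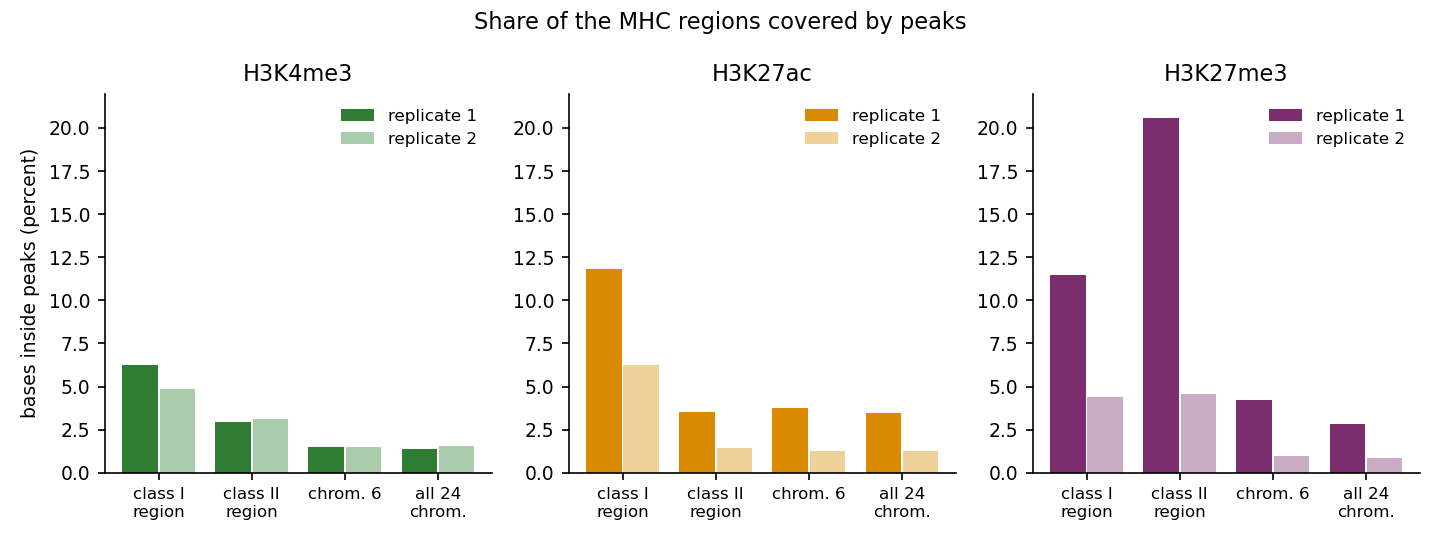
Percent of bases inside peaks of each mark, replicate 1 dark and replicate 2 pale, for the class I region, the class II region, chromosome 6 and all 24 main chromosomes. H3K27ac reaches 11.8% and 6.24% in the class I region against 3.54% and 1.43% in the class II region, and H3K27me3 reaches 20.6% in the class II region in replicate 1 against 4.59% in replicate 2.

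Candidate distal elements were taken as H3K27ac in both replicates with no H3K4me3 peak and no annotated start within 1 kb. Within 20 kb of the canonical start they were found at 3 of 44 genes, beside 14.7% of protein-coding genes and 18.5% of the expressed ones. By class the counts were 2 of 15 class I (13.3%), 0 of 11 class II and 1 of 18 interferon genes. The difference from all protein-coding genes was not tested. These 3 elements lay downstream of the start, 9.73 kb for ERAP2 (chr5:96221789-96222071, hg19), 10.8 kb for NLRC5 (chr16:57034078-57034555) and 10.8 kb for ISG15 (chr1:959254-960014). None lay near a class II gene.

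Short promoter motifs occurred at different frequencies in the 3 classes, a difference that was not tested. The RefSeq table (GRCh38.p14, 250 bases before to 50 after each start) held 37 of the 44 members, leaving out HLA-E, NLRC5, HLA-DRA, CIITA, IRF7, IFIT2 and OAS2, and each of the 37 sequences occurred once on its chromosome in GRCh37, where the peaks are. The ISRE core was in 7 of 13 class I, 0 of 9 class II and 11 of 15 interferon promoters, beside 3.57% of all 35116 promoters in the table. GAS (TTCNNNGAA, the same on both strands) was in 0 of 13, 1 of 9 and 6 of 15, beside 7.66%, and the CCAAT box in 7 of 13, 8 of 9 and 6 of 15, beside 34.6%. A match is a description of letters and not evidence of binding.

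**Figure D5:**
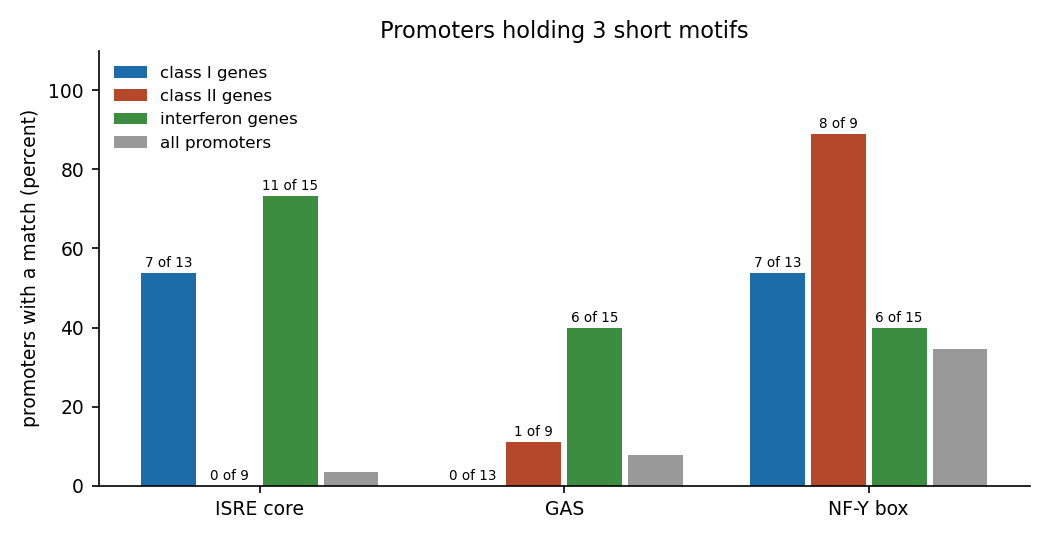
Percent of promoters in the RefSeq table with at least 1 match on either strand of the ISRE core, the GAS element and the CCAAT box (labelled NF-Y box), for class I, class II and interferon genes and, in grey, for all promoters. Counts stand over the bars, with 11 of 15 interferon promoters against 3.57% of all promoters for the ISRE core, and 8 of 9 class II promoters against 34.6% for the CCAAT box.

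Within a class, promoters with a motif belonged to genes of high and of low RNA. In the printed stretches B2M, TAP1, BST2 and ISG15 each have overlapping ISRE cores, and their levels ran from 10.7 FPKM in TAP1 to 107 in B2M. IFIT1, with 2 cores, had 2.87 and 3.63 FPKM, and IFI6, with 3 cores, had 16.7 and 14.9. The 3 interferon promoters in the table whose genes were not expressed, IFI27, IFI44L and MX1, all hold an ISRE core, as do 8 of the 12 expressed ones. Likewise CD74 and HLA-DMA have a CCAAT box as do HLA-DPB1 and HLA-DQB1, which were not expressed. All 4 expressed and 4 of 5 unexpressed class II promoters in the table hold it, HLA-DPA1 being the exception. The window used for HLA-DPA1 lies inside the HLA-DPB1 gene, and its other annotated starts were not searched. In peaks, the window of the IFIT1, IFIT3 and IFI6 promoters overlapped H3K4me3 in replicate 1 only, that of B2M, BST2, OAS3, ISG15 and TAP1 in both replicates, and that of HLA-DQB1 overlapped H3K27me3 in both.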

How the data were processed

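RNA-seq (2 libraries) and ChIP-seq peak lists (2 replicates each of 3 marks) of HK2 cells were used. The input DNA and the HiChIP data were not used here. Total RNA was depleted of rRNA, and the authors mapped the reads with HISAT2 and deposited FPKM, TPM and coverage per transcript from StringTie 1.3.3, whose header names GENCODE version 27. The paper gives hg19 for this mapping, but the deposited coordinates are of GRCh38, so they were not used. Peaks were called by the authors with MACS2 on uniquely mapped Bowtie2 alignments to hg19 and deposited as intervals without scores, so the depth behind a peak is unknown. FPKM were summed per gene and joined by Ensembl identifier to GENCODE version 44 lifted to GRCh37, which 55822 of 58243 genes matched. Overlaps were computed with Python 3.11.15, numpy 2.4.6 and pandas 2.3.3, plotted with matplotlib 3.10.9, and the overlap step, tested on simulated data, placed 400 of 400 starts correctly. Every member could be named, and of other lists each gene with a mean FPKM of at least 1 or the highest of a list where none reached it. The members and lists were chosen with earlier results of these data known. Intervals that cover counting error were not given because FPKM keep no read counts. Alternatives tried were other FPKM thresholds, TPM, another pseudocount, other windows and starts, wider peaks, and each replicate alone.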

Additional observations from a re-analysis of the deposited data

How the results depend on the processing

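Over 135 combinations of a class value with an alternative setting, 94 stayed close to the reported value and 41 moved. A change of direction could be scored only for the 15 differences of class medians, and 0 of these changed direction. For counts, coverage and mark combinations the scoring could not show one. Neither the FPKM values nor the peak lists hold read counts, and each class has few genes. Expressed class II genes numbered 7 at an FPKM of at least 0.1, and the counts of the other classes stayed within 1.5 times. The log10 difference of medians between class I and class II was 1.47 with TPM, 1.73 with a pseudocount of 0.1 and 0.548 over members with a mean FPKM of at least 0.1. For interferon less class II these were 1.06, 1.31 and 0.181, with 0.777 to 0.780 in single libraries, and for class I less interferon 0.410, 0.420 and 0.367. H3K27me3 was at 0 class I genes with a window of 500 bp, with an overlap of at least 200 bp, at the gene's 5′ end and at the canonical start. At class II genes it was at 1 with the 5′ end and at 2 with the canonical start, an alternative chosen after seeing the data. There the canonical start left H3K4me3 at 2 and H3K27ac at 1, and either replicate gave 7 and 5. At interferon genes either replicate gave 18 for H3K4me3 and 15 for H3K27ac, and peaks of at least 500 bp left H3K27ac at 5. In single replicates H3K27ac was at 2 to 5 class II genes and 9 to 15 interferon genes, and H3K4me3 at 12 to 16 interferon genes. Coverage by both replicates together was 3.39% for H3K4me3, 6.13% for H3K27ac and 3.43% for H3K27me3 in the class I region, and 2.16%, 1.43% and 3.26% in the class II region. Single replicates gave 4.88 to 6.23%, 6.24 to 11.8% and 4.42 to 11.5% in the class I region, and 2.95 to 3.13%, 1.43 to 3.54% and 4.59 to 20.6% in the class II region. For H3K27me3 the class I region was above the class II region with both replicates together and below it in each replicate alone. Members with H3K4me3 and H3K27ac numbered 17 to 31 in single replicates, with a median FPKM of 14.9 to 17.0, and those with no mark numbered 5 to 6, with a median of 0.0207 to 0.801. The cause of these shifts was not tested. Alternate haplotype sequences are not listed in the RNA-seq data, so that alternative gave no value.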

Other observations

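Interferon-induced genes that are not members also differed in their marks. IFI44 (2.37 and 2.98 FPKM), GBP1 (2.51 and 3.69), GBP2 (1.70 and 2.26) and IFITM2 (1.05 and 1.59) were expressed with no mark in both replicates, and HERC6 (5.31 and 5.42 FPKM) had all 3 marks. CSF1R (4.66 and 4.30 FPKM) and CD68 (42.5 and 36.8 FPKM), the leukocyte markers that were expressed, had H3K27ac but not H3K4me3 in both replicates.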
